A study of Mus musculus with 3 samples.

Results

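The Hox genes are the 39 protein-coding mouse genes named Hoxa, Hoxb, Hoxc or Hoxd followed by a number, chosen by symbol from 21887 protein-coding gene records. They lie in 4 clusters. In mm10 the Hoxa cluster holds 11 genes on chromosome 6 (52155367 to 52260880), the Hoxb cluster 10 genes on chromosome 11 (96194316 to 96368254), the Hoxc cluster 9 genes on chromosome 15 (102921131 to 103036856) and the Hoxd cluster 9 genes on chromosome 2 (74668225 to 74765142). Each cluster was examined with 20 kb on either side. H3K9ac, a histone H3 acetylation of active promoters and enhancers, was mapped by CUT&Tag, an assay that tethers a transposase to an antibody against the mark. The cells were 50000 sorted haematopoietic stem cells (HSCs) per assay from bone marrow of wild-type mice.

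There were 3 groups of 1 library each: old HSC ABC, whose last 3 letters are left undefined in the labels, old HSC, and young HSC. The labels give ages of 18 to 24 months or 2 to 4 months, assigned here by the o or y that opens each title. They do not say how the HSCs were gated, the sex of the mice or how many were pooled. The values are summit positions and a score for each summit. With 1 library per group no difference had a replicate check, so no test was run and read depth stays unknown. The sample names inside the lists go against the labels. Inside, the list labelled old HSC ABC is named as old HSC, the one labelled old HSC is named as old HSC ABC, and the one labelled young HSC is named as a further old HSC sample. Groups below follow the labels, and every direction holds for the libraries as labelled.

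Hox genes encode homeodomain transcription factors that give body regions their identity in the embryo. Within a cluster the genes are read in the same direction, and low-numbered genes sit at the 3′ end and act in more anterior tissue. In blood, members of the Hoxa and Hoxb clusters are used in stem and progenitor cells. HOX proteins bind DNA together with MEIS and PBX cofactors. MLL (Kmt2a) complexes keep active Hox genes on, and Polycomb complexes keep inactive ones off.

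The clusters also hold microRNA genes, shown here because summits lay within 1 kb of Mir196b and of no other. In the mature sequences from RefSeq (GRCm38.p6) the seed, bases 2 to 8, is in capitals.
mmu-miR-196b-5p (Hoxa cluster, chr6:52230129-52230150, minus strand): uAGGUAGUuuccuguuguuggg
mmu-miR-196a-5p (Hoxb cluster, chr11:96265187-96265208, plus strand): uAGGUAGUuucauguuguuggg
mmu-miR-10a-5p (Hoxb cluster, chr11:96317186-96317208, plus strand): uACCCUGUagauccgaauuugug
mmu-miR-10b-5p (Hoxd cluster, chr2:74726074-74726096, plus strand): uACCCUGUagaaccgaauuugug
The miR-196 sequences share a seed, as do the miR-10 sequences. A further gene, Mir196a-2 in the Hoxc cluster, gives the same miR-196a-5p. Mir196b had its nearest summit 425 bp away in the ABC-labelled, 294 bp in the old-labelled and 427 bp in the young-labelled library. Mir10a, just upstream of Hoxb4, had its nearest summits at 1142, 1126 and 1126 bp in the same order of libraries. Of the 6 microRNA records in the windows, Mir196b was the 1 with a summit within 1 kb in any library.

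A total of 22 of the 39 genes had promoters in the RefSeq table. The 250 bases before the start are printed for Hoxa3 and Hoxb4, where all 3 libraries had a summit, and for their Hoxd paralogues, where none did. Capitals mark matches to the motifs searched on both strands, namely the MEIS motif TGACAG, the CCAAT box, the TATA box TATAAA, the GC box GGGCGG, the GATA motif AGATAA and the PBX-HOX motif TGATTNAT. None of these contains another.
Hoxa3 (chr6:52213068-52213317, minus strand): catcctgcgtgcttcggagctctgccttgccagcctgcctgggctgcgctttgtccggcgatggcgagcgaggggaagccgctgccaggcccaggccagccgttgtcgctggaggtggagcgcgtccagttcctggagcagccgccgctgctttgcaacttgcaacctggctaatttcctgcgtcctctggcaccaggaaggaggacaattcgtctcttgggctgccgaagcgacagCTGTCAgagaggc
Hoxd3 (chr2:74711743-74711992, plus strand): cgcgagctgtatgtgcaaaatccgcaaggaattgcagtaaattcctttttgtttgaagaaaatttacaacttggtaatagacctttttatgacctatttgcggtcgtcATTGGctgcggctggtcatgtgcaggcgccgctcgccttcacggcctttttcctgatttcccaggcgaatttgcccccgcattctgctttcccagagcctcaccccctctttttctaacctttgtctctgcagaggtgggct
Hoxb4 (chr11:96318017-96318266, plus strand): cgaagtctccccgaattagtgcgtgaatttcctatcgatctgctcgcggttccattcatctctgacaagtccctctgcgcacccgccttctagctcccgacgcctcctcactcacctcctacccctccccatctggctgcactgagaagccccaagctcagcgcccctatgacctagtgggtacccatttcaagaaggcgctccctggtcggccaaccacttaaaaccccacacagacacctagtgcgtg
Hoxd4 (chr2:74721728-74721977, plus strand): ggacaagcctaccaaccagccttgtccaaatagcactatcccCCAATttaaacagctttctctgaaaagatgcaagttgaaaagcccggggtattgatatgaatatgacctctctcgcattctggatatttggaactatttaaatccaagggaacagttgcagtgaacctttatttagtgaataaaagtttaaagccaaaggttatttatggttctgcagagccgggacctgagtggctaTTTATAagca
These stretches held 18 CpG dinucleotides for Hoxa3, 12 for Hoxd3, 14 for Hoxb4 and 3 for Hoxd4. Over the 24 Hox promoters of the table the median was 12.5 (range 2 to 35), above the median of 6 over all 32851 promoters. Hoxa promoters (median 15.5, 10 promoters) and Hoxd promoters (12.5, 10 promoters) overlapped in range, 3 to 35 and 2 to 31. A CCAAT box stood in 14 Hox promoters (58.3%, against 33.8% of all promoters) and a GC box in 10 (41.7%, against 32.7%). A TATA box stood in 4 (16.7%, against 12.4%), and the MEIS and PBX-HOX motifs in 2 each (8.33%, against 15.9% and 2.82%). No GATA motif was found in a Hox promoter, and 9.99% of all promoters held it.

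Taken over all 4 clusters together, fewer Hox genes had an H3K9ac summit at an end of their record than protein-coding genes at large. A terminal summit is a summit within 1 kb of either end of the gene record. In the ABC-labelled library 7 of 39 Hox genes had a terminal summit (17.9%, 95% Clopper-Pearson interval 7.54 to 33.5), against 43.6% of all protein-coding genes. The old-labelled library had 9 (23.1%, 11.1 to 39.3), against 56.9%. The young-labelled library had 4 (10.3%, 2.87 to 24.2), against 41.9%. The background share lay above the interval in each library. The intervals cover counting error only, and neighbouring Hox genes share windows, so the genes are not independent. In all 3 libraries 3 genes had a terminal summit, Hoxa3, Hoxb3 and Hoxb4, or 7.69% (1.62 to 20.9), against 36.3% of all genes. None was found in any library for 28 Hox genes (71.8%, 55.1 to 85.0), against 40.1% of all genes.

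The 11 genes with a terminal summit somewhere were all in the Hoxa and Hoxb clusters. By number, anterior genes (1 to 4) had a terminal summit in 5 of 12 cases in the ABC-labelled, 6 in the old-labelled library and 3 in the young-labelled library. Their shares of 41.7%, 50% and 25.0% had intervals that held the all-gene shares of 43.6%, 56.9% and 41.9%. In equal-length lists the anterior counts were 4, 3 and 3 (33.3%, 25.0% and 25.0%, against 40.5%, 45.5% and 41.9% of all genes). Central genes (5 to 8) had 0, 1 and 1 of 11 (0%, 9.09% and 9.09%), and posterior genes (9 to 13) had 2, 2 and 0 of 16 (12.5%, 12.5% and 0%). The central and posterior intervals lay below the all-gene share in each library. Position and cluster overlap in part. Most posterior genes lie in the Hoxc and Hoxd clusters, where no gene had a terminal summit in any library. Within the Hoxa and Hoxb clusters the groups can be set side by side. There, no library had a terminal summit at the anterior genes Hoxa2 and Hoxb2. The same held for the central genes Hoxa5, Hoxa7, Hoxb6, Hoxb7 and Hoxb8 and the posterior genes Hoxa11, Hoxa13 and Hoxb9. The part of position apart from cluster was not tested. Summed over the 4 windows there were 15 summits in the ABC-labelled, 25 in the old-labelled library and 11 in the young-labelled library, over 652 kb. That is 2.30, 3.83 and 1.69 per 100 kb. All protein-coding records with the same flank had 2.74, 6.37 and 2.05 per 100 kb. Summits of any library were chained into sites where each lay less than 500 bp from the next. This gave 31 sites, of which 8 held a summit of all 3 libraries, 5 in the Hoxb and 3 in the Hoxa cluster.

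In the Hoxb cluster the summits lay together over the record of Hoxb3, which is 40.8 kb long and encloses Hoxb4 and Mir10a. That record held 6 summits in each library: 6 of the 6 ABC-labelled, 6 of the 10 old-labelled and 6 of the 7 young-labelled summits of the Hoxb window. The equal count stood beside lists of 45386, 108787 and 33248 summits genome-wide. The whole Hoxb window had 2.80, 4.67 and 3.27 summits per 100 kb in the ABC-, old- and young-labelled lists. All protein-coding records with the same flank had 2.74, 6.37 and 2.05. In equal-length lists, each limited to its 33248 highest-scoring summits, the record held 5 ABC-labelled, 4 old-labelled and 6 young-labelled summits.

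**Figure D1:**
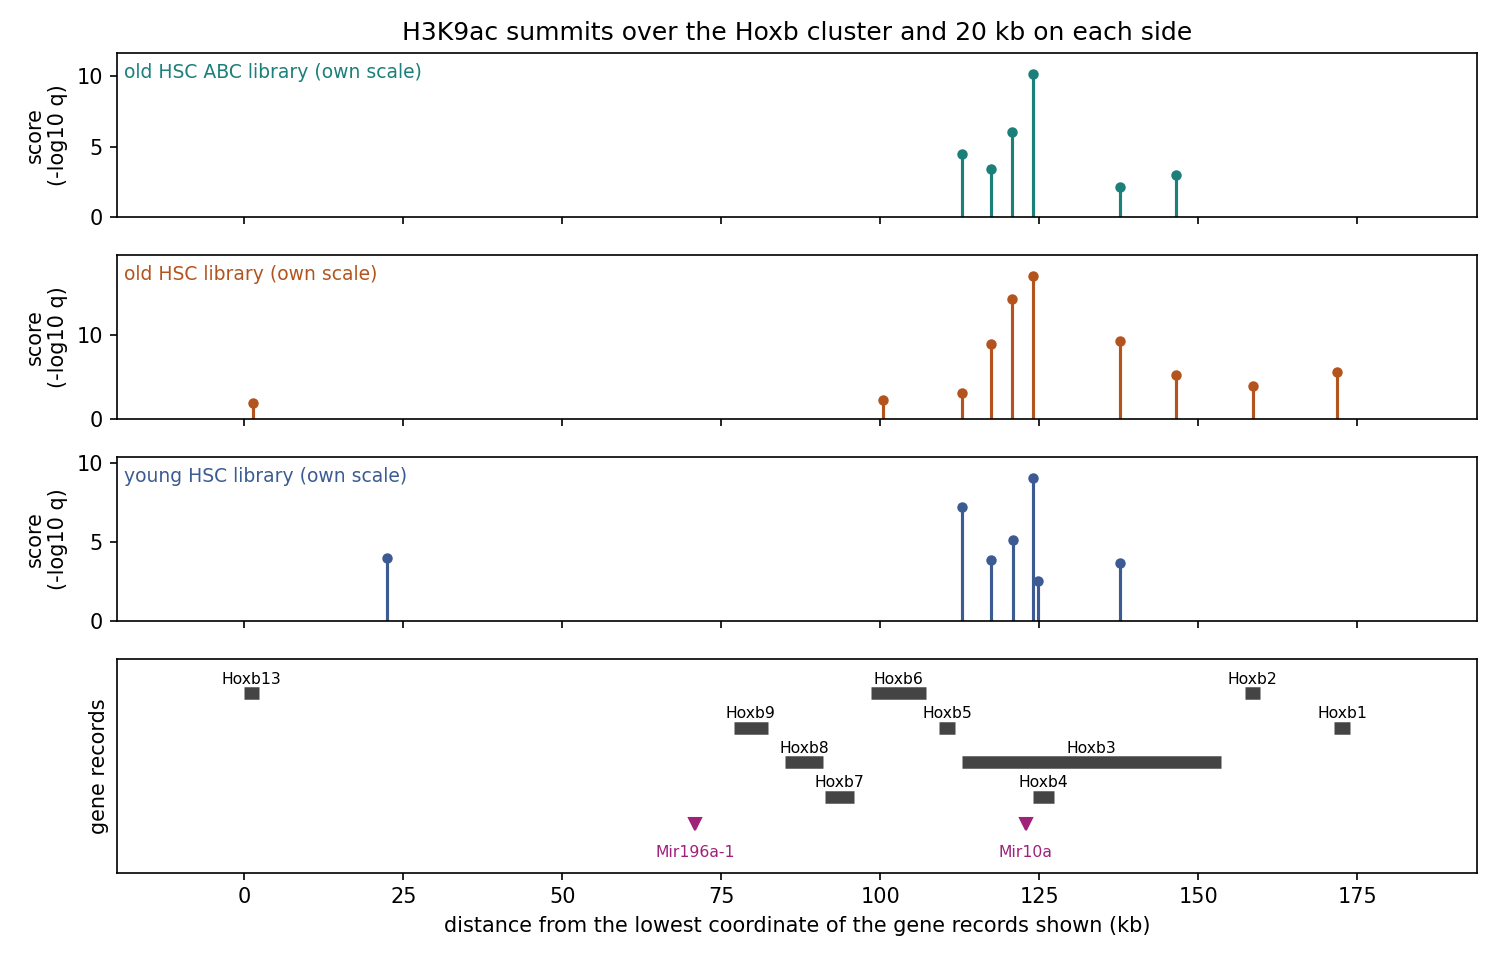
Summits over the Hoxb cluster with 20 kb on each side, drawn by distance (kb) from the lowest coordinate of its gene records; stem height is the authors' score in each library on its own scale, which cannot be compared between libraries. The 5 sites seen in all 3 libraries sit over the Hoxb3 record, and the stretch from Hoxb9 to Hoxb7 holds no summit.

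Hoxb4, whose forced expression expands HSCs, carried the most closely aligned site. Its summits lay at 96318416 in the ABC-labelled, 96318400 in the old-labelled library and 96318400 in the young-labelled library, 149, 133 and 133 bp downstream of the annotated start. The scores were 10.1, 16.9 and 9.06, and 88.0%, 91.3% and 79.0% of the same list scored as low or lower. This was the highest-scoring Hox summit of the ABC-labelled list. The young-labelled library had a further, weaker summit in the Hoxb4 record at 96319163 (2.56).

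Hoxb3, the neighbouring paralogue on the 3′ side of Hoxb4, had summits at the 5′ end of its record, at 96307190 (ABC-labelled, score 4.47), 96307124 (old-labelled, 3.09) and 96307107 (young-labelled, 7.25). The young-labelled summit lay 6 bp from the record end. Within its own list the old-labelled summit was weak, with 30.1% of summits at or below its score, and it did not reach the equal-length list. Inside the record, summits of all 3 libraries stood at 96311690 to 96311746, at 96315083 to 96315175 and at 96332043 to 96332078. At these 3 sites the ABC-labelled scores were 3.45, 6.07 and 2.14, the old-labelled scores 8.92, 14.2 and 9.29, and the young-labelled scores 3.86, 5.17 and 3.71. The 5 sites common to the libraries each spanned 16 to 92 bp. A site at 96340779 to 96340860 held an ABC-labelled (2.98) and an old-labelled summit (5.20).

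Hoxb5, which marks long-term HSCs in mouse, shows how the 1 kb limit acts. The nearest summit was 1069 bp from its record in the ABC-labelled, 1003 bp in the old-labelled and 986 bp in the young-labelled library, so the young-labelled library counted it and the others did not. All are the summits at the 5′ end of Hoxb3. Counting each summit for the nearest record end only left Hoxb5 without a terminal summit in the young-labelled library, where the count became 3 genes.

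Hoxb1, active in the embryonic hindbrain, and Hoxb13, a caudal gene, had terminal summits in the old-labelled library alone, with scores of 5.65 (96366195) and 1.98 (96195687). Neither was among the equal-length summits. From these genes the nearest ABC-labelled summits lay 23247 and 42950 bp away and the nearest young-labelled ones 33668 and 20143 bp away. Hoxb2 and Hoxb6 had an old-labelled summit inside their records (3.92 and 2.32) but outside the end windows, 1014 and 1957 bp from an end. Hoxb7, Hoxb8 and Hoxb9 had none in their records in any library. Their nearest summits lay 17027, 21865 and 30595 bp away in the ABC-labelled, 4608, 9446 and 18176 bp in the old-labelled, and 16944, 21782 and 30512 bp in the young-labelled library. The longest stretch of the cluster with no summit of any library was 78.0 kb, between a young-labelled summit at 96216753 (4.03) and the old-labelled one in Hoxb6 at 96294771.

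In the Hoxa cluster 3 sites recurred in all libraries, at the 5′ end of Hoxa3, between Hoxa7 and Hoxa9, and between Hoxa9 and Hoxa10. The window held 8 ABC-labelled, 12 old-labelled and 3 young-labelled summits, or 5.50, 8.25 and 2.06 per 100 kb. All protein-coding records with the same flank had 2.74, 6.37 and 2.05. The Hoxa window was thus denser than these in the ABC- and old-labelled lists and about equal in the young-labelled list. The same window in equal-length lists held 4, 5 and 3. The young-labelled summits were confined to the 3 recurring sites.

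**Figure D2:**
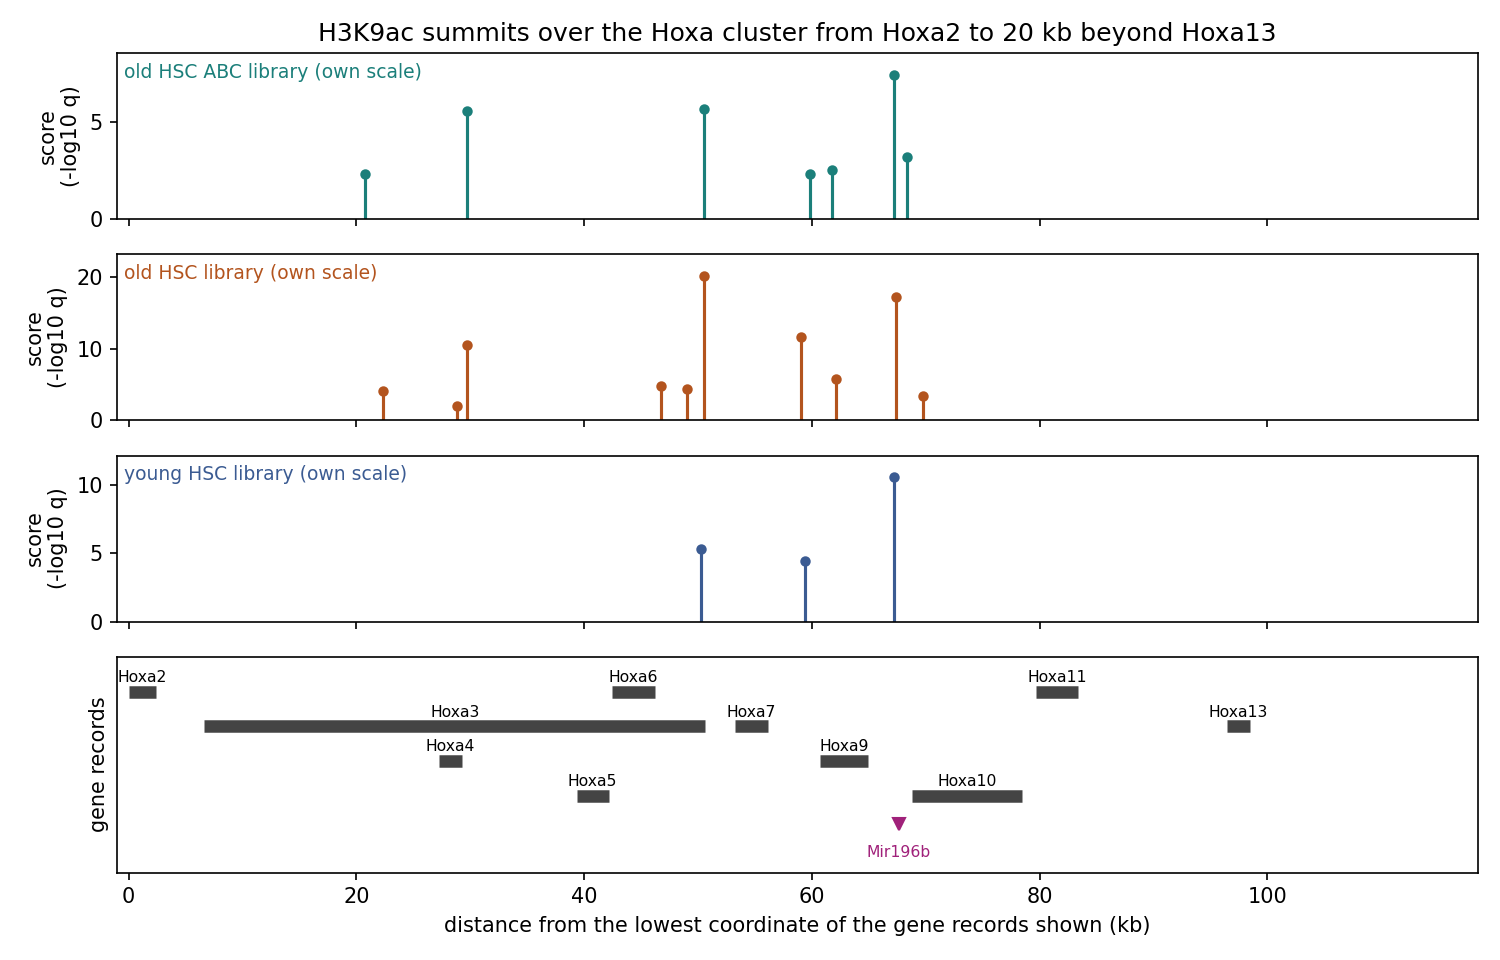
Summits over the Hoxa cluster from Hoxa2 to 20 kb beyond Hoxa13, drawn by distance (kb) from the lowest coordinate of the Hoxa2 record; stem height is the authors' score in each library on its own scale, which cannot be compared between libraries. Hoxa genes are read from right to left, and no library has a summit from Hoxa11 through Hoxa13.

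The summits at Hoxa3 lay at 52212900 (ABC-labelled, score 5.68), 52212905 (old-labelled, 20.2) and 52212687 (young-labelled, 5.32). They were 167, 162 and 380 bp downstream of the annotated start whose upstream sequence is printed above. The old-labelled one was the strongest Hox summit of its list, with 92.9% of the list scoring as low or lower. The Hoxa3 record is 44.0 kb long and runs over Hoxa4, Hoxa5 and Hoxa6, so its 3, 6 and 1 summits cannot be assigned to Hoxa3 alone. The site also lies in the antisense record Hoxaas3.

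Between Hoxa9 and Hoxa10 the summits lay at 52229656 (ABC-labelled, score 7.47), 52229787 (old-labelled, 17.2) and 52229654 (young-labelled, 10.6). The young-labelled one was the strongest Hox summit of its list, with 83.2% at or below its score. The site lies in the non-coding record Gm52902 and next to Mir196b. It is 2286, 2417 and 2284 bp upstream of the annotated start of Hoxa9, a gene that promotes progenitor growth and is a classic target of MLL fusion proteins. It thus fell outside the end window of Hoxa9. The site between Hoxa7 and Hoxa9 held summits at 52222237 (ABC-labelled, 2.35), 52221480 (old-labelled, 11.7) and 52221850 (young-labelled, 4.45). These lay 860, 1617 and 1247 bp from the 3′ end of Hoxa9, so the ABC-labelled library alone counted Hoxa9. Its record also held an ABC-labelled (52224193, 2.55) and an old-labelled (52224536, 5.80) summit and no young-labelled one.

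Hoxa10, another regulator of blood progenitors, had terminal summits in the ABC-labelled (52230790, 3.21) and old-labelled (52232177, 3.33) libraries, 407 and 980 bp from the 3′ end of its record and on either side of it. The nearest young-labelled summit was 1543 bp away. Both annotated Hoxa10 starts were farther off: the nearer, at 52234939, had its closest summits 4149, 2762 and 5285 bp downstream in the ABC-, old- and young-labelled libraries. The terminal summits of Hoxa10 are therefore not at a start.

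Hoxa4 had summits just upstream of its 5′ end at 52192098 (ABC-labelled, 5.57) and 52192144 (old-labelled, 10.6), 395 and 441 bp from the record, both also in equal-length lists. A weaker old-labelled summit lay inside its record (52191208, 2.00). The nearest young-labelled summit lay 20984 bp away. Hoxa6 had an old-labelled terminal summit alone (52209205, 4.81), 533 bp upstream of its start, and nearest ABC- and young-labelled summits at 4228 and 4015 bp.

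Hoxa2, Hoxa5, Hoxa7, Hoxa11 and Hoxa13 had no terminal summit and no summit in their records in any library. For Hoxa7 the nearest were 2723, 2718 and 2936 bp away in the ABC-, old- and young-labelled libraries. For Hoxa13, a limb and urogenital gene, they were 28063, 26676 and 29199 bp away. Hottip, a non-coding gene next to Hoxa13, had none within 1 kb, and from 52232177 in Hoxa10 to the end of the cluster (28.7 kb) no library had a summit.

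The Hoxc and Hoxd clusters were almost empty. No Hoxc gene had a terminal summit in any library (0 of 9, upper bound 33.6%). The Hoxc cluster held 1 site, inside the Hoxc6 record, with an old-labelled summit at 102999305 (5.65) and a young-labelled one at 102999753 (5.46). They lay 1079 and 1527 bp from the 5′ end of the record. The nearest ABC-labelled summit to any Hoxc gene was 175496 bp away from Hoxc4. In the flank the old-labelled library had a summit at 103056668 (2.42). Neither old-labelled summit reached the equal-length list.

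No library had a summit inside the Hoxd cluster, over 96.9 kb, so again 0 of 9 genes had a terminal summit. The flank beyond Hoxd1 held an old-labelled summit at 74783254 (3.92) and an ABC-labelled one at 74784952 (2.68). They were 18112 and 19810 bp from Hoxd1, and neither was in the equal-length list. The young-labelled window held none, and the nearest summit to Hoxd1 was 61245 bp away. Hoxd13, which patterns the digits, had its nearest summits at 89861, 61803 and 89600 bp in the ABC-, old- and young-labelled libraries. Hotair in the Hoxc cluster, Mir10b, and Evx2 beside Hoxd13 had no summit within 1 kb.

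**Figure D3:**
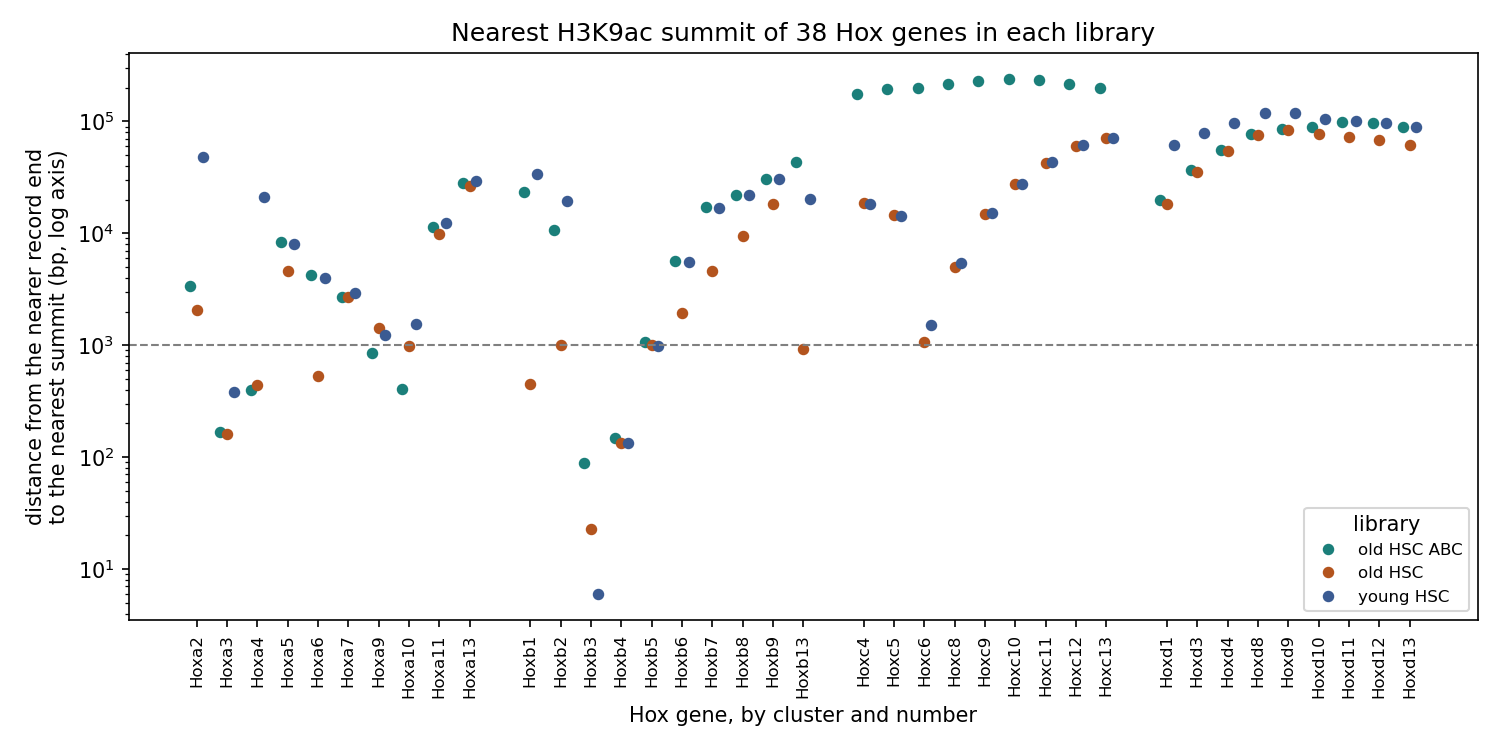
Distance in bp (log axis) from the nearer end of each of 38 Hox records to the nearest summit, in the ABC-, old- and young-labelled libraries; the dashed line is the 1 kb limit for a terminal summit. Hoxa3, Hoxb3 and Hoxb4 lie below it in all 3 libraries, and every Hoxd gene is at least 18112 bp from a summit.

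Old HSC ABC against old HSC sets libraries of like labelled age side by side. Hoxa9 had a terminal summit in the ABC-labelled library and none in the old-labelled one, or 2.56% of the 39 genes, against 2.23% of all protein-coding genes. The reverse held for Hoxa6, Hoxb13 and Hoxb1 (7.69%, against 15.6%). In equal-length lists Hoxa10 and Hoxb3 were on the ABC-labelled side (background 3.20%) and no gene on the old-labelled side (background 8.22%), so the direction turned. Of the 15 ABC-labelled window summits 10 had an old-labelled summit within 500 bp (66.7%, 38.4 to 88.2), against 72.4% of all ABC-labelled summits. The Hox share thus differed from the whole list by less than its counting error.

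Old HSC against young HSC sets the labelled ages side by side. With 1 library each, and lists of 108787 and 33248 summits, age cannot be told apart from library. A terminal summit in the old-labelled library and none in the young-labelled one was found at 6 genes, among them Hoxa4, Hoxa6, Hoxa10, Hoxb1 and Hoxb13, 15.4% of members and close to the 16.6% of all genes. Hoxb5 was on the young-labelled side (2.56%, against 1.59%), through the 986 and 1003 bp described above. In equal-length lists Hoxa4 remained on the old-labelled side (background 6.90%), and Hoxb5 and Hoxb3 were on the young-labelled side (background 3.28%), so the direction turned here too. Of the 25 old-labelled window summits 9 lay within 500 bp of a young-labelled one (36.0%, 18.0 to 57.5), against 23.8% of the whole list. Read the other way, 9 of 11 young-labelled summits had an old-labelled neighbour (81.8%, 48.2 to 97.7), against 77.4%.

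For old HSC ABC against young HSC, 4 genes, among them Hoxa4, Hoxa9 and Hoxa10, were on the ABC-labelled side (10.3%, against 6.43% of all genes) and Hoxb5 on the young-labelled side (2.56%, against 4.78%). In equal-length lists Hoxa4 and Hoxa10 were on the ABC-labelled side (background 4.70%) and Hoxb5 on the young-labelled side (6.09%). Of the 15 ABC-labelled window summits 8 had a young-labelled summit within 500 bp (53.3%, 26.6 to 78.7), against 43.5% of the list. The comparisons share libraries, so they are not independent. In equal-length lists 5 Hox genes had a terminal summit in the ABC-labelled (12.8%, against 40.5% of all genes), 3 in the old-labelled (7.69%, against 45.5%) and 4 in the young-labelled library (10.3%, against 41.9%).

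Members near the limit set part of these differences. Just inside it were Hoxb5 in the young-labelled library (986 bp), Hoxa10 and Hoxb13 in the old-labelled (980 and 923 bp) and Hoxa9 in the ABC-labelled (860 bp). Just outside were Hoxb5 (1003 bp), Hoxb2 (1014 bp) and Hoxc6 (1079 bp) in the old-labelled library and Hoxb5 in the ABC-labelled (1069 bp). Measured from annotated starts, 2 of the 22 Hox genes with a start in the table had a summit within 1 kb in the ABC-labelled library (Hoxa3 and Hoxb4), 4 in the old-labelled (also Hoxa6 and Hoxb1) and 2 in the young-labelled (Hoxa3 and Hoxb4). Over all 17492 genes with a start in the table the shares were 46.3%, 57.9% and 45.5%. The 22 Hox genes are 9 Hoxa, 3 Hoxb, 1 Hoxc and 9 Hoxd genes, so they hold the whole empty Hoxd cluster. Hoxa4, Hoxb3 and Hoxb5 are among the members without a start in the table.

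The genes of HOX cofactors and regulators were set beside all protein-coding genes, of which 43.6% had a terminal summit in the ABC-labelled, 56.9% in the old-labelled list and 41.9% in the young-labelled list. Of 9 cofactor genes 5 had a terminal summit in the ABC-labelled and 6 in each of the old- and young-labelled libraries (55.6%, 66.7% and 66.7%), and each interval held the all-gene share. In equal-length lists the ABC-labelled count was 3 (33.3%, against 40.5% of all genes). Meis1, the cofactor needed by HSCs, had one in all 3 (scores 6.33, 25.9 and 3.69). Pbx4 had none in the ABC-labelled library, where its nearest summit was 1111 bp away, against scores of 12.6 and 2.01 in the old- and young-labelled lists. Meis2, Meis3 and Pknox2 had none in any library.

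Of 17 MLL and trithorax genes 9 had a terminal summit in the ABC-labelled, 14 in the old-labelled library and 13 in the young-labelled library (52.9%, 82.4% and 76.5%). The all-gene share lay inside the interval for the ABC-labelled (27.8 to 77.0) and old-labelled (56.6 to 96.2) libraries and below it for the young-labelled (50.1 to 93.2). In equal-length lists the old-labelled count was 10 (58.8%, against 45.5% of all genes). Kmt2a, which encodes MLL, had one in each (11.3, 7.89 and 4.40), as did its partners Men1 (5.71, 16.6 and 6.29) and Psip1 (5.68, 26.6 and 11.9). Aff4 and Mllt1, of the elongation complexes that MLL fusions recruit, had none in the ABC-labelled library, with nearest summits at 1109 and 4924 bp. Their old-labelled scores were 18.1 and 9.17 and their young-labelled ones 9.64 and 6.39.

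Polycomb genes had a terminal summit in 12 of 23 cases in the ABC-labelled, 17 in the old-labelled library and 15 in the young-labelled library (52.2%, 73.9% and 65.2%). The all-gene share lay inside the interval for the ABC-labelled (30.6 to 73.2) and old-labelled (51.6 to 89.8) libraries and just below it for the young-labelled (42.7 to 83.6). In equal-length lists the counts were 11, 17 and 15 (47.8%, 73.9% and 65.2%, against 40.5%, 45.5% and 41.9% of all genes). The old-labelled count was unchanged, and its interval then lay above the all-gene share. The core subunit genes Eed (11.7, 33.2 and 15.1), Suz12 (17.2, 29.6 and 19.8), Ring1 (7.11, 17.7 and 5.27) and Rnf2 (11.8, 35.1 and 12.9) had one in all 3. A total of 6 genes differed between the ABC- and old-labelled libraries in both settings, on the old-labelled side: Phc2, Pcgf1, Phc1, Cbx8, Jarid2 and Cbx6. They were 26.1% of the list, against 15.6% of all genes as deposited and 8.22% in equal-length lists. Cbx6 and Phc1 had an ABC-labelled summit just outside the 1 kb limit, at 1005 and 1055 bp. As deposited Cbx2 was on the ABC-labelled side (4.35%, against 2.23% of all genes), and in equal-length lists no Polycomb gene was. Bmi1, a Polycomb gene needed for HSC self-renewal, had an ABC-labelled (4.60) and an old-labelled (9.59) terminal summit, and its closest young-labelled summit was at 4152 bp. Ezh2, the H3K27 methyltransferase, had a young-labelled one alone (15.3), with ABC- and old-labelled summits just outside, at 1029 bp each.

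The list of upstream Cdx and retinoic acid inputs stood at 6 of 19 in the ABC-labelled, 9 in the old-labelled library and 4 in the young-labelled library (31.6%, 47.4% and 21.1%). These shares were lower than for all genes, but their intervals held the all-gene share. The list also holds genes of neither kind, Ctcf among them, that had a terminal summit in all 3 libraries and so raise its shares. In equal-length lists the counts were 4, 5 and 4 (21.1%, 26.3% and 21.1%, against 40.5%, 45.5% and 41.9% of all genes). Rara, a retinoic acid receptor (7.41, 13.3 and 1.77), and Ctcf, an insulator protein (12.6, 23.8 and 11.8), had a terminal summit in all 3, and Cdx1, Cdx2 and Cdx4 in none. The receptor gene Rarg had one in the ABC-labelled (2.63) and old-labelled (10.6) lists, and its closest young-labelled summit was at 2990 bp.

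**Figure D4:**
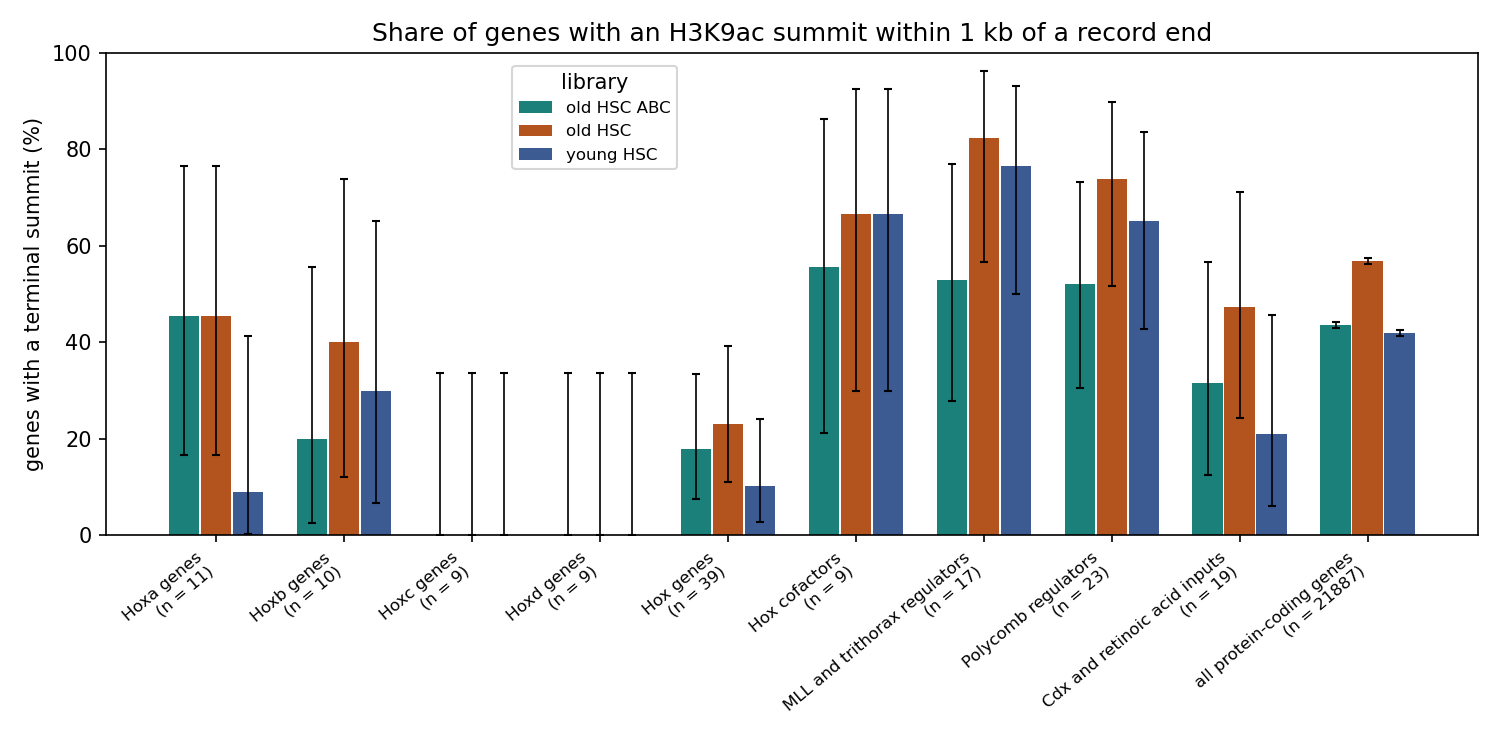
Percent of genes with a terminal summit in the ABC-, old- and young-labelled libraries, for the Hox clusters, all Hox genes, the regulator lists and all protein-coding genes; bars are shares and lines exact 95% binomial intervals for counting error. The Hoxc and Hoxd bars are at 0, and all Hox genes together stand at 17.9%, 23.1% and 10.3%.

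As a check of the labelled cell type, 7 of 12 HSC marker genes had a terminal summit in the ABC-labelled, 11 in the old-labelled library and 8 in the young-labelled library (58.3%, 91.7% and 66.7%). The interval held the all-gene share in the ABC-labelled (27.7 to 84.8) and young-labelled (34.9 to 90.1) libraries and lay above it in the old-labelled (61.5 to 99.8). In equal-length lists the old-labelled count was 8 (66.7%, against 45.5% of all genes). The interval for 8 of 12 genes, 34.9 to 90.1, held that share. Mecom had none in any. Markers of megakaryocytes, erythroid cells, granulocytes and monocytes, B cells, T and NK cells, and stroma or endothelium had one in 13, 20 and 8 of 37 cases (35.1%, 54.1% and 21.6%). Granulocyte and monocyte markers made up 6, 8 and 5 of these, out of 8 (75.0%, 100% and 62.5%), and the same in equal-length lists. Their interval lay above the all-gene share of 56.9% in the old-labelled library (63.1 to 100) and held that share in the others. These markers thus had terminal summits about as often as the HSC markers, so the check does not set HSCs apart from granulocytes and monocytes. In bulk cells a site carried by fewer cells and a weaker site in all cells cannot be told apart, and the part of other cell types in the Hox summits was not tested.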

How the data were processed

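The deposited lists held summits of 1 bp, each with a score, 1 list per library. The build was mm10 and the tools named are MACS2, BWA, edgeR and Picard, per the submitters' processing notes, with no version, role, control or threshold given in the sources used here. The authors' score is read as the −log10 q-value of MACS2, since all lists begin just over 1.30, which is the −log10 of 0.05. Peaks were taken as called per library, since each list belonged to 1 sample. Scores move with depth, which is unknown, so they ranked and filtered summits within a list only, and no floor that needs depth is given.

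Gene records and promoters came from RefSeq tables of GRCm38.p6, which has mm10 coordinates. All 39 members matched by symbol. A terminal summit is a summit within 1 kb of either end of a record, and summits of different libraries within 500 bp were counted as shared. Shares carry exact 95% Clopper-Pearson intervals, which cover counting error only. Groups of 1 library allowed no test, and the labels name no batch. Equal-length lists hold the 33248 highest-scoring summits of each library. The counting was tested on simulated summits with Python 3.11.15, pandas 2.3.3, numpy 2.4.6 and scipy 1.17.1. Genes of 4 other lists were named where libraries differed in the deposited and the equal-length lists alike, or to illustrate a count. Some genes are counted but not reported by name here. The members and lists were chosen with earlier results of these data known. Alternatives were score minimums, equal-length lists, merged summits, other windows and other ways of assigning a summit to a gene.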

Additional observations from a re-analysis of the deposited data

How the results depend on the processing

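Of 102 recomputed values for 12 results, 67 stayed within their counting interval or within 1.5 times, 32 moved further and 3 reversed. No paired analysis was possible because each group has 1 library. In equal-length lists the net number of Hox genes (those with a terminal summit in the first-named library alone minus those in the second alone) was 2 for ABC- against old-labelled (-2 as deposited) and -1 for old- against young-labelled (5 as deposited), so both turned. It was 1 for ABC- against young-labelled (3 as deposited). Hox genes with an old-labelled terminal summit fell to 3, the windows held 9 ABC-labelled and 9 old-labelled summits, and 77.8% of the old-labelled ones had a young-labelled neighbour. At a score of at least 5, terminal summits were left at 3 ABC-labelled and 5 old-labelled genes, and the net numbers were 1 for old- against young-labelled and -1 for ABC- against young-labelled, which turned. The windows held 5, 14 and 6 summits of the ABC-, old- and young-labelled lists, and of the ABC-labelled ones 100% lay near old-labelled and 80.0% near young-labelled summits. At a score of at least 10, terminal summits were left at 1, 3 and 0 genes, with 1, 6 and 1 window summits. The net numbers were 3 for old- and 1 for ABC- against young-labelled, and the shares with a neighbour were 100% for ABC- near old-labelled, 16.7% for old- near young-labelled and 0% for ABC- near young-labelled. With ends within 500 bp the net numbers were -1 for ABC- against old-labelled and 3 for old- against young-labelled. Within 2 kb they were -6 for ABC- against old-labelled and 1 for ABC- against young-labelled, with 14 old-labelled and 7 young-labelled genes. Counting summits anywhere in the record gave -6 for ABC- against old-labelled and 8 for old- against young-labelled. Merged summits, the start side only, the nearest record end only, flanks of 0, 10 and 50 kb and sharing within 250 or 1000 bp moved none of the results they were run on. Causes were not tested, beyond the shorter lists that 3 of these settings make. Scores cannot be compared between lists of unknown depth, so the net numbers at score minimums of 5 and 10 cannot be read as differences between libraries. A summit missing from a list may have been below its threshold.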

Other observations

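Around the clusters, at up to 200 kb, lay 16 other protein-coding records, and 7 of them had a terminal summit in all 3 libraries (43.8%, near the 36.3% of all protein-coding genes). A further 8 had none in any library (50%, against 40.1% of all genes). Those with one in all 3 were Skap2 beside the Hoxa cluster, Snf8, Ube2z and Atp5g1 beyond Hoxb13, Calcoco1 and Cbx5 on either side of the Hoxc cluster, and Mtx2 beyond Hoxd1. Skap2, an adaptor of Src-family kinases 142818 bp from the Hoxa cluster, had scores of 4.89 in the ABC-labelled, 16.1 in the old-labelled library and 10.5 in the young-labelled list. Mtx2, a mitochondrial import gene 60670 bp from the Hoxd cluster, had scores of 11.6, 23.9 and 3.37. Smug1, 116434 bp from the Hoxc cluster and nearer to it than Cbx5 on the same side, had none in any library. Evx1 and Evx2, the homeobox genes beside the Hoxa and Hoxd clusters, had no terminal summit and no summit in their records in any library. Lnpk, 88767 bp from the Hoxd cluster, had a terminal summit in the young-labelled list alone, while its record held 2 ABC-labelled and 1 old-labelled summit.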
